A study of Rattus norvegicus with 16 samples.

Results

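Bulk liver messenger RNA of male rats given xylazine at 40 mg/kg was compared with that of rats given saline. The comparison used 8 of the 16 libraries of the study, 4 from animals given 40 mg/kg and 4 from saline animals. It covered 12732 genes, those that passed a filter on low counts out of the 17544 genes in the deposited table. All animals were males of the rat strain labelled SD, injected into the peritoneum for 28 days. The treated animals received xylazine at 10, 20 or 40 mg/kg, 4 sequenced livers at each dose, and the controls received saline with no drug. Each library came from the liver of 1 animal, so the replicates are animals. No genotype or second agent is named in the labels. Age, feeding, the interval between the last injection and sampling, and any batch are not given in the sources used here. Expected counts summed to between 16059922 and 16859622 in the 40 mg/kg libraries and to between 16513394 and 16956867 in the saline libraries. Values below are CPM, counts scaled to a common library total after TMM normalization, and group values are means with the standard deviation (SD) over 4 animals. Alb, the gene of serum albumin and a defining liver transcript, stood at 94162, 107950.0, 106150.0 and 103970.0 CPM in treated animals, against 86841, 111190.0, 104030.0 and 117090.0 CPM in saline animals. The groups overlapped, and both carried the liver transcript at a high level.

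Xylazine is a veterinary sedative that activates alpha-2 adrenergic receptors. In pancreatic islets these receptors restrain insulin release, and in the brain stem they lower sympathetic outflow. The liver makes fatty acids from acetyl units when insulin signalling is high. The transcription factor encoded by Srebf1 switches on the enzymes of this route and of desaturation. In the fasted state the liver instead makes glucose from amino acids and lactate and disposes of the nitrogen as urea, work done mainly by hepatocytes near the portal vein. The comparison asks which liver transcripts differ at the highest dose, in a study on liver injury by xylazine.

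Several fatty acid synthesis genes rose at 40 mg/kg, so the promoters of the regulator Srebf1 and of the 2 desaturase genes Scd and Scd2 are shown. Each runs from 250 bases before to 50 bases after the annotated start, read along the gene, from RefSeq on the rat build GRCr8, while the counts were made on an earlier build. Capitals mark the NF-Y box, CCAAT or its reverse complement, a motif bound by a factor that works beside SREBP. The Srebf1 promoter lies at chr10:45529115-45529414 on the minus strand, that of Scd at chr1:253231682-253231981 on the minus strand, and that of Scd2 at chr1:253118127-253118426 on the plus strand.
Srebf1: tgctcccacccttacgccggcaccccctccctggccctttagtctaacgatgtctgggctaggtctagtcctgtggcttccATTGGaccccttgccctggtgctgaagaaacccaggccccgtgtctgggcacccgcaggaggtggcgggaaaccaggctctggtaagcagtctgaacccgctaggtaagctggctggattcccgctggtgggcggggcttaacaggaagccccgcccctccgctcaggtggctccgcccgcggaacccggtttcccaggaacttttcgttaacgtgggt
Scd: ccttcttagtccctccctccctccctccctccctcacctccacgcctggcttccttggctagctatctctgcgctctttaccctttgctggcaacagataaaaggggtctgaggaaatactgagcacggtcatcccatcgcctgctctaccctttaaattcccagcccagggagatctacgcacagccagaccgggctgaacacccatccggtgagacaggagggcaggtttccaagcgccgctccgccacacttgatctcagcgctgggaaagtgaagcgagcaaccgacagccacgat
Scd2: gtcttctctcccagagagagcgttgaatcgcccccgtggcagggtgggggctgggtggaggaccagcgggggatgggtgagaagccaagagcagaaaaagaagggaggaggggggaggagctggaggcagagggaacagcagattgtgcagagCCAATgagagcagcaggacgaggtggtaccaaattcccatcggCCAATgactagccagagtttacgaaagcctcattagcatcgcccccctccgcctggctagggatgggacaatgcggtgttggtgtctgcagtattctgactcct
The Srebf1 window held 1 NF-Y box and that of Scd2 held 2, while the Scd window held none of the motifs searched. The windows of Me1 and Fads2, which also rose, held none either, so 2 of 5 promoters examined among the passing members carried the box. Of 15 promoters of the fatty acid synthesis list found in the table, 10 (66.7%) held CCAAT on either strand, against 38.4% of 10434 promoters of tested genes. Among genes that passed, the share was 41.7% of 48 higher and 40.6% of 64 lower. The SREBP element TCACNCCAC stood in none of the 15, in 2.08% of the 48 and in 1.10% of all. The E-box CACGTG stood in 16.7% of the promoters of higher genes, 4.69% of those of lower genes and 9.29% of all. The clock D-box TTATGNAA stood in 2.08%, 4.69% and 2.04% of the same sets. Both strands were searched, and matches of different motifs could overlap. A match describes letters in a window, not a bound site.

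At an adjusted p below 0.05, 141 of the 12732 genes passed (1.11%), 60 higher (0.471%) and 81 lower (0.636%) at 40 mg/kg. Each list count below is to be read beside that 1.11%, and a single call in a long list is no result about that list. The changes were mostly small: the median absolute log2 fold change of genes that passed was 0.75, 43 had an absolute log2 fold change of 1 or more (18 higher, 25 lower) and 38 one under 0.5. All 4 treated animals lay outside the saline range in 140 of the 141, and in 1184 of all genes (9.3%), 566 of them higher (4.45%) and 618 lower (4.85%). Over all genes the median log2 fold change was 0.00, with 6370 positive and 6362 negative. Of 809 genes below 1 CPM in both groups 0 passed, and of 1257 genes above 100 CPM in either group 31 passed. The split by direction changed with the scaling between libraries: scaling by library totals alone gave 91 higher and 50 lower, and log2(TPM + 1) gave 122 higher and 45 lower. The count depended on single libraries. Leaving out saline replicates 1, 2, 3 and 4 in turn left 27, 72, 198 and 70 genes. Leaving out the 40 mg/kg replicates in the same order left 63, 78, 57 and 29, and leaving out replicate 2 of the 20 mg/kg group left 94. Of 81 genes named here that passed, 14 kept their call in all 16 removals of 1 library. These were Parvb, Rnf138, Fam126b, Adgrg2, Baiap2l1, Srebf1, Nlrp12, Rnd2, Cflar, Mcm10, Mrps34, Ca3, Tmem135 and Fmo4.

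**Figure D1:**
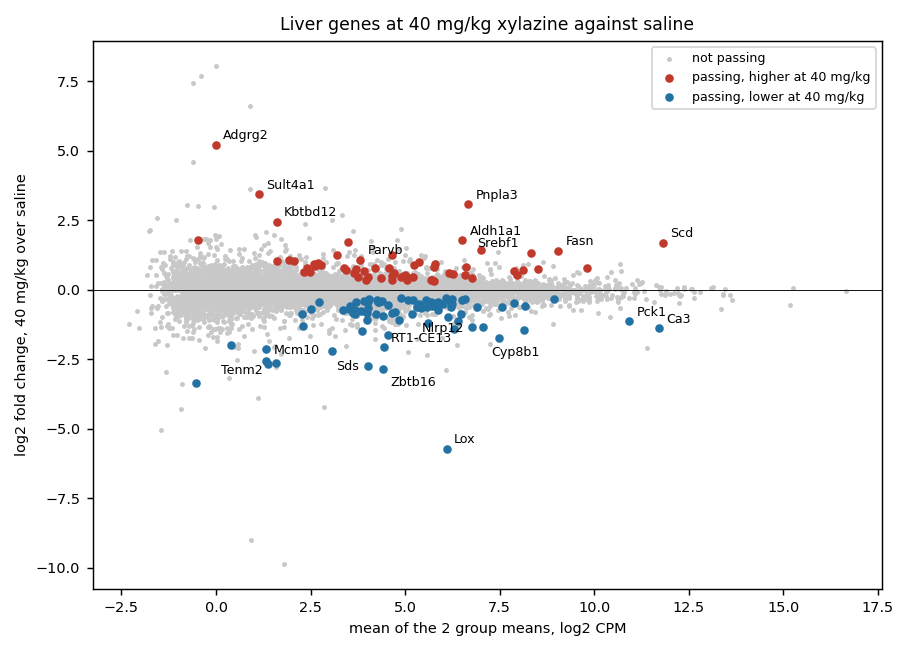
Log2 fold change at 40 mg/kg over saline (vertical axis) against the mean of both group means in log2 CPM (horizontal axis) for 12732 genes. Red and blue points are the 60 higher and 81 lower genes with adjusted p below 0.05, and grey points are all others; Lox lies lowest among the coloured points, at -5.72.

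**Figure D2:**
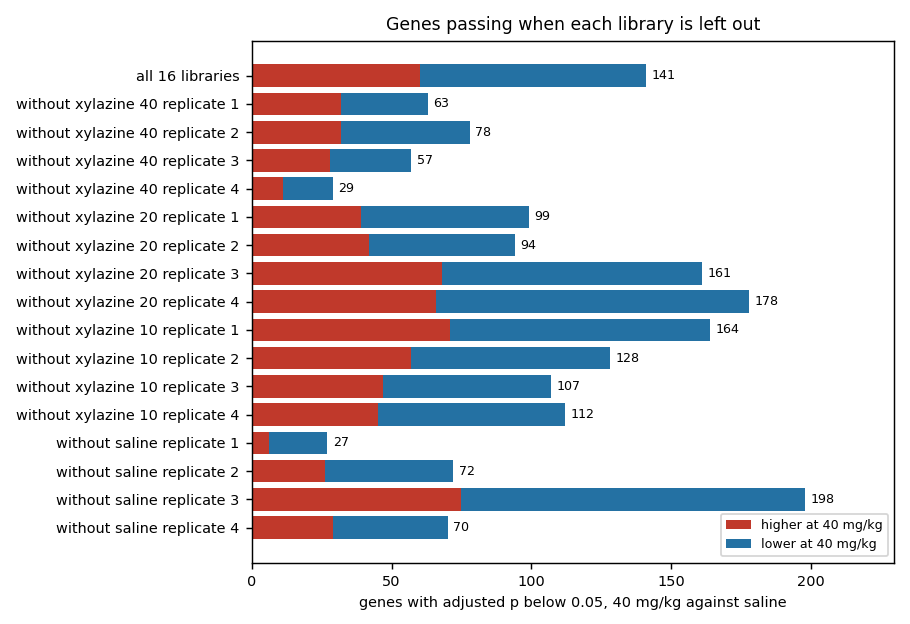
Number of genes with adjusted p below 0.05, higher (red) and lower (blue) at 40 mg/kg against saline, with all 16 libraries and with each library left out. The number ran from 27 without saline replicate 1 to 198 without saline replicate 3.

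Several genes of fatty acid synthesis rose. Of 18 list members, all tested, 16 were positive (median 0.60), and 6 passed, all higher: Srebf1, Me1, Fads2, Fasn, Scd2 and Scd. The summed abundance of the list per length was between 4245 and 5326 TPM at 40 mg/kg and between 2119 and 3164 TPM in saline, without overlap. Srebf1 (gene 78968) stood at 419.5, 543, 383 and 502 CPM in treated animals, against 203, 139, 236 and 154 CPM in saline animals. The lowest treated animal lay well above the highest saline animal (log2 fold change 1.34, SE 0.189, adjusted p = 0.00589), and the call held in all 16 removals. Me1 (gene 24552), which supplies NADPH to the synthase, stood at 218, 128, 126 and 288 CPM in treated animals, against 57.5, 59.7, 93.8 and 66.7 CPM in saline animals. Treated replicates 1 and 4 were far above treated replicates 2 and 3, and all were above saline (log2 fold change 1.45, SE 0.241, adjusted p = 0.0150). It lost the call in 1 of 16 removals (adjusted p up to 0.0522). Fasn (gene 50671), the synthase itself, was highest in treated replicate 2, with 511, 1324, 692 and 556 CPM in treated animals, against 279, 309, 372 and 197 CPM in saline animals (log2 fold change 1.41, SE 0.294, adjusted p = 0.0385). In 9 of 16 removals the call was lost (adjusted p up to 0.0971). Fads2, which desaturates polyunsaturated precursors, stood at 1302, 976, 1074 and 1205 CPM in treated animals, against 581, 495, 857 and 691 CPM in saline animals (log2 fold change 0.80, SE 0.149, adjusted p = 0.0200). Its treated values were close together and above all saline values. Scd2, the minor stearoyl-CoA desaturase of rat liver, rose to 16.4 ± 1.99 CPM at 40 mg/kg, against 9.68 ± 1.37 CPM in saline, log2 fold change 0.77, SE 0.168, adjusted p = 0.0424. Fads2, Scd2 and Scd lost their calls in 3, 12 and 13 of 16 removals (adjusted p up to 0.0648, 0.0882 and 0.114).

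Other genes of the route did not pass. The acetyl-CoA carboxylase genes Acaca (log2 0.54, adjusted p = 0.0748) and Acacb (log2 0.59, adjusted p = 0.0782), chosen with their values in view, did not pass although the groups did not overlap. Thrsp, a lipogenic regulator, stood at 847, 1033, 990.4 and 886 CPM in treated animals, against 432, 725, 913 and 409 CPM in saline animals and did not pass (log2 0.60, adjusted p = 0.163). Saline replicate 3 lay within the treated range, and saline replicates 1 and 4 lay well below it. The insulin-regulated genes Irs2 (log2 -0.11, adjusted p = 0.952, 0.11 on log2(TPM + 1)) and Igfbp1 (log2 0.83, adjusted p = 0.569) did not pass. Of 19 insulin signalling genes 0 passed. Cholesterol synthesis, which the related factor encoded by Srebf2 controls, gave 0 of 22 passing with 10 positive and a median of -0.05, or 0.01 at the highest under another scaling. The pentose phosphate enzyme Tkt, another source of NADPH through its pathway, stood at 276, 278, 269 and 345 CPM in treated animals, against 178, 225, 208 and 200.3 CPM in saline animals (log2 fold change 0.52, SE 0.0967, adjusted p = 0.0200). All treated animals were above saline, replicate 4 the highest. Removing 1 library ended the call 3 times in 16 (adjusted p up to 0.0612).

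Glyceride and lipid droplet genes followed in part. Of 16 tested genes of glyceride assembly and lipolysis 9 were positive (median 0.18), and 2 passed, Pnpla3 and Mgll. Mgll (gene 29254), which splits monoacylglycerol, had 135, 122, 138 and 103 CPM in treated animals, against 67.9, 71.7, 71.6 and 73.5 CPM in saline animals (log2 fold change 0.81, SE 0.137, adjusted p = 0.0150). The saline animals lay close together and every treated animal well above them. Of 16 removals, 1 ended the call (adjusted p up to 0.0515). Pnpla3 (gene 362972), a lipid droplet acylhydrolase induced by Srebf1, had 116, 186, 93.7 and 330.2 CPM in treated animals, against 11.2, 12.04, 36.9 and 26.2 CPM in saline animals (log2 fold change 3.07, SE 0.601, adjusted p = 0.0332). The treated animals differed among themselves more than in most genes, replicate 4 being the highest. It lost the call in 5 of 16 removals (adjusted p up to 0.0882). The acyltransferases Agpat3 (log2 0.64, adjusted p = 0.0554) and Gpam (log2 0.80, adjusted p = 0.0872), chosen with their values in view, did not overlap and did not pass. Lpin1, the phosphatidate phosphatase, was the lowest member at log2 -1.94, adjusted p = 0.167, with 48.2, 76.9, 71.8 and 54.1 CPM in treated animals, against 127, 461, 151 and 223 CPM in saline animals. Among droplet coat genes 1 of 10 passed: Plin2, which coats hepatocyte droplets, with 294, 329.9, 281 and 268 CPM in treated animals, against 149, 192, 227 and 160.1 CPM in saline animals (log2 fold change 0.69, SE 0.156, adjusted p = 0.0466). In 12 of 16 removals the call was lost (adjusted p up to 0.116). Cidec, another droplet protein, was lower without overlap and did not pass (log2 -0.44, adjusted p = 0.0782). Lpcat3, which puts polyunsaturated chains into phospholipid, had 99.9, 117, 115 and 119.9 CPM in treated animals, against 70.6, 71.8, 89.2 and 81.8 CPM in saline animals (log2 fold change 0.53, SE 0.0934, adjusted p = 0.0168). The groups did not overlap, and the call was lost in 2 of 16 removals (adjusted p up to 0.0578). Tm6sf2, which loads lipid into lipoprotein, passed with overlapping groups, at 24.9, 28.4, 31.2 and 28.8 CPM in treated animals, against 20.7, 25.2, 21.1 and 21.4 CPM in saline animals (log2 fold change 0.36, SE 0.0827, adjusted p = 0.0491), and its call was lost in 14 of 16 removals (adjusted p up to 0.124). It was the 1 gene of the 141 with an overlap.

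Neighbouring genes on the chromosome appeared among those that passed. Whether such pairs were more frequent than among all genes was not tested. In the order of RefSeq genes, Pnpla3, Samm50 and Parvb follow one another, and all 3 rose. Parvb (gene 362973), a focal adhesion adaptor, had 18.2, 16.04, 18.4 and 24.1 CPM in treated animals, against 7.92, 8.33, 9.29 and 10.5 CPM in saline animals (log2 fold change 1.09, SE 0.140, adjusted p = 0.00446), which was the smallest p of all. Samm50, part of the machinery that inserts proteins in the mitochondrial outer membrane, had 57.5, 54.1, 63.4 and 56.8 CPM in treated animals, against 45.8, 40.9, 51.8 and 42.5 CPM in saline animals (log2 fold change 0.36, SE 0.0831, adjusted p = 0.0491), a small change whose call was lost in 14 of 16 removals (adjusted p up to 0.124). Kbtbd12 beside Mgll had 3.46, 5.95, 4.15 and 7.11 CPM in treated animals, against 0.289, 1.32, 1.21 and 0.965 CPM in saline animals (log2 fold change 2.45, SE 0.548, adjusted p = 0.0466), and its call was lost in 12 of 16 removals (adjusted p up to 0.119). Kbtbd12 was low in both groups, and none of these 3 genes overlapped. Kank2 beside Dock6 had 49.5, 56.5, 51.7 and 62.1 CPM in treated animals, against 28.3, 24.9, 34.5 and 22.004 CPM in saline animals (log2 fold change 1.002, SE 0.206, adjusted p = 0.0344), and its call was lost in 8 of 16 removals (adjusted p up to 0.0991). Dock6, chosen with its values in view, had 13.3, 12.9, 11.02 and 15.7 CPM in treated animals, against 8.32, 7.49, 8.57 and 6.05 CPM in saline animals (log2 fold change 0.80, SE 0.175, adjusted p = 0.0424), and its call was lost in 8 of 16 removals (adjusted p up to 0.118). The lipoprotein lipase inhibitor gene Angptl8 lies within the span of Dock6, and whether counting used strand is not stated. Angptl8 itself had 38.7, 87.7, 90.2 and 56.1 CPM in treated animals, against 40.7, 68.1, 58.95 and 16.02 CPM in saline animals, did not pass (log2 0.57, adjusted p = 0.663) and was spread within both groups. Other adjacent pairs were Fmo4 with Fmo1, Ca3 with Car1, and Nnmt with Zbtb16, all lower.

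Peroxisomal genes leaned higher. Of 22 tested genes of peroxisomal oxidation and acyl-CoA thioesterases 18 were positive (median 0.38) against 0.00 over all genes, 9 were higher without overlap and 1 passed. That gene was Ehhadh, the peroxisomal bifunctional enzyme, with 419.9, 569, 375 and 461 CPM in treated animals, against 257, 250.1, 289 and 281 CPM in saline animals (log2 fold change 0.76, SE 0.148, adjusted p = 0.0240). The lowest treated animal lay well above the highest saline animal, and the call was lost in 5 of 16 removals (adjusted p up to 0.0691). The members nearest to the threshold, chosen with their values in view, were the fatty acyl importer Abcd3 at 278, 269.5, 241 and 205 CPM in treated animals, against 173, 174, 175 and 199 CPM in saline animals (log2 0.46, adjusted p = 0.0503) and the thioesterase Acot4 at 37.2, 34.96, 26.7 and 29.1 CPM in treated animals, against 6.36, 17.5, 18.2 and 16.8 CPM in saline animals (log2 1.12, adjusted p = 0.0572). Saline replicate 1 was the lowest for Acot4. The thiolase Acaa1b (log2 1.08, adjusted p = 0.0769) and the thioesterase Acot3 (log2 0.82, adjusted p = 0.0748) did not overlap and did not pass. Hsdl2, a peroxisomal dehydrogenase outside the list, had 55.1, 48.3, 40.6 and 51.3 CPM in treated animals, against 21.3, 22.8, 25.2 and 36.4 CPM in saline animals (log2 fold change 0.89, SE 0.201, adjusted p = 0.0486), and its call was lost in 12 of 16 removals (adjusted p up to 0.119). Tmem135, a membrane protein found on peroxisomes and mitochondria, had 85.8, 85.4, 91.7 and 84.3 CPM in treated animals, against 52.2, 66.8, 53.8 and 53.2 CPM in saline animals (log2 fold change 0.62, SE 0.102, adjusted p = 0.0129). Its treated values were nearly equal and the call held in all 16 removals. In mitochondrial oxidation and ketogenesis 0 of 24 passed, with 13 positive and a median of 0.02. Cpt2, the inner-membrane carnitine enzyme, lay higher without overlap (log2 0.55, adjusted p = 0.0736).

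Some marker genes of periportal hepatocytes fell. Of 17 tested periportal hepatocyte markers 16 were negative (median -0.43), and 3 passed, all lower: Pck1, Sds and Cyp8b1. By animal the list median stood at -0.50, -0.24, -0.24 and -0.49 in the treated animals, against -0.28, 0.02, 0.18 and 0.05 in saline animals, in log2 relative to the saline mean. Saline replicate 1 lay below treated replicates 2 and 3, so the groups overlapped. Of 19 pericentral markers 10 were positive and 9 negative (median 0.02), and 0 passed. Pck1 (gene 362282), the committed step of gluconeogenesis, had 1148, 1236, 1646 and 827 CPM in treated animals, against 1939.6, 2629, 2409.5 and 3703 CPM in saline animals. The highest treated animal lay below the lowest saline animal (log2 fold change -1.14, SE 0.211, adjusted p = 0.0200), and the call was lost in 2 of 16 removals (adjusted p up to 0.0589). The final enzyme of the route, G6pc1, had 434, 1161, 1272 and 749 CPM in treated animals, against 665, 875, 1325 and 759 CPM in saline animals and a log2 fold change of 0.00 (adjusted p = 0.999), with full overlap and a sign that changed with the scaling. Sds (gene 25044), which turns serine into pyruvate, had 3.17, 6.49, 4.38 and 2.74 CPM in treated animals, against 16.6, 30.2, 33.7 and 32.9 CPM in saline animals (log2 fold change -2.76, SE 0.571, adjusted p = 0.0424). Saline replicate 1 was the lowest of the controls and still above every treated animal, and the call was lost in 10 of 16 removals (adjusted p up to 0.118). Got1 (gene 24401), the cytosolic aspartate aminotransferase, had 62.1, 56.7, 74.5 and 54.7 CPM in treated animals, against 155, 190.4, 135 and 148 CPM in saline animals (log2 fold change -1.34, SE 0.240, adjusted p = 0.0200). The treated animals lay close together, and the call was lost in 4 of 16 removals (adjusted p up to 0.0685). Of 32 genes of amino acid catabolism 27 were negative (median -0.17), and Sds and Got1 passed. Of 11 urea cycle genes 10 were negative (median -0.26), and 0 passed. Among them Cps1, which fixes ammonia, had 2051, 3145, 2563 and 2585 CPM in treated animals, against 3261, 3424, 4003 and 3455 CPM in saline animals (log2 -0.45, adjusted p = 0.0769) and Asl, which releases arginine, had 155, 129.5, 171 and 163 CPM in treated animals, against 174, 223, 231 and 232 CPM in saline animals (log2 -0.48, adjusted p = 0.0600). Both were lower without overlap, and both were chosen with their values in view. Cps1, Asl and Sds are also on the periportal list, so these lists are not independent. The urea cycle median by animal stood at -0.42, -0.15, -0.20 and -0.27 in the treated animals, against -0.21, 0.06, 0.18 and -0.03 in saline animals, with saline replicate 1 below treated replicates 2 and 3. In bulk tissue, fewer cells of a type and less RNA per cell cannot be told apart.

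**Figure D3:**
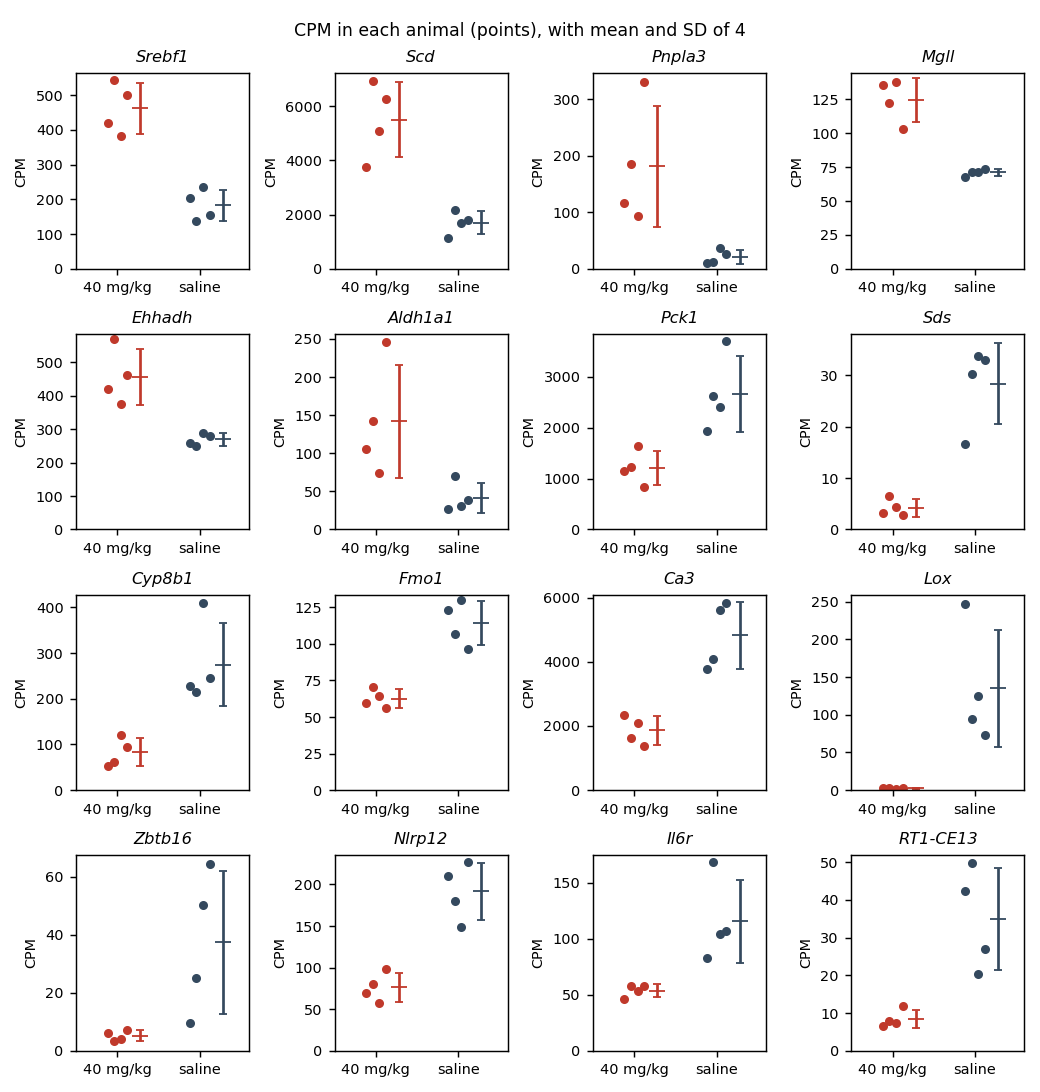
CPM of 16 genes in each animal (points), with the mean and SD of 4 beside them, 40 mg/kg on the left and saline on the right of each panel; every axis starts at 0. In all 16 panels the groups do not overlap; Srebf1 lies between 383 and 543 CPM at 40 mg/kg, above its saline animals, and Lox between 2.13 and 3.18 CPM, below them.

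In bile acid and drug metabolism single genes passed. Cyp8b1 (gene 81924), which sets the share of cholic acid, had 53.7, 61.5, 120.1 and 94.6 CPM in treated animals, against 229, 215, 410.1 and 246 CPM in saline animals (log2 fold change -1.74, SE 0.323, adjusted p = 0.0240). Saline replicate 3 was the highest, and every treated animal lay below every control. Removing 1 library ended the call 4 times in 16 (adjusted p up to 0.0664). Cyp7a1, which starts the pathway, had 96.7, 231, 214 and 222 CPM in treated animals, against 22.8, 224, 170.4 and 41.05 CPM in saline animals with wide overlap (log2 0.74, adjusted p = 0.621). Of 16 bile acid synthesis genes Cyp8b1 alone passed. The flavin monooxygenase genes Fmo1 and Fmo4, whose enzymes oxidise nitrogen and sulfur in drugs, fell without overlap. Fmo1 had 59.5, 70.6, 64.4 and 56.001 CPM in treated animals, against 123, 107, 130.1 and 96.6 CPM in saline animals (log2 fold change -0.87, SE 0.166, adjusted p = 0.0240), and its call was lost in 4 of 16 removals (adjusted p up to 0.0792). Fmo4 had 8.21, 7.55, 7.38 and 7.93 CPM in treated animals, against 11.6, 14.6, 10.98 and 14.6 CPM in saline animals (log2 fold change -0.73, SE 0.125, adjusted p = 0.0150) and held in all 16 removals. Fmo5 (log2 -0.02, adjusted p = 0.967) and the barely expressed Fmo2 (log2 -0.41, adjusted p = 0.711) overlapped and did not pass; these 4 genes were chosen with their values in view. Of 34 cytochrome P450 genes 0 passed, with 19 positive. The xenobiotic-induced Cyp1a1 (log2 -0.89, adjusted p = 0.663) and Cyp2b1 (log2 0.22, adjusted p = 0.904) overlapped. Cyp2b2, a near copy of Cyp2b1 whose reads may be shared, had 208, 305, 210.5 and 296 CPM in treated animals, against 47.7, 169.8, 159 and 22.8 CPM in saline animals (log2 1.35, adjusted p = 0.250). Nnmt, which methylates nicotinamide, had 42.5, 48.2, 40.6 and 45.2 CPM in treated animals, against 64.7, 72.5, 64.3 and 87.7 CPM in saline animals (log2 fold change -0.71, SE 0.163, adjusted p = 0.0475) and was the 1 gene of 41 phase II transferases that passed. Of 16 removals, 12 ended the call (adjusted p up to 0.112). Over all genes 1.11% passed.

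Transporters and carbonic anhydrases were split. Of 13 bile acid and organic anion transporters 2 passed. Slc22a8, an organic anion importer, had 238, 252, 233 and 202 CPM in treated animals, against 403, 315, 298 and 366 CPM in saline animals (log2 fold change -0.58, SE 0.133, adjusted p = 0.0468), and Abcc4, an exporter at the sinusoidal membrane, had 13.2, 12.97, 10.7 and 17.1 CPM in treated animals, against 9.02, 7.67, 7.36 and 9.01 CPM in saline animals (log2 fold change 0.71, SE 0.163, adjusted p = 0.0480). Neither gene overlapped between groups. Their calls were lost in 11 and 13 of 16 removals (adjusted p up to 0.137 and 0.142). Abcc3, another exporter, was high in 1 treated animal, at 4.17, 4.19, 3.86 and 13.8 CPM in treated animals, against 3.005, 2.88, 2.65 and 2.38 CPM in saline animals (log2 1.25, adjusted p = 0.0980). Ca3 (gene 54232), a carbonic anhydrase abundant in male rat liver, had 2345, 1634, 2105 and 1369.8 CPM in treated animals, against 3766, 4083, 5616 and 5827 CPM in saline animals (log2 fold change -1.37, SE 0.222, adjusted p = 0.0129). Every treated animal lay far below every control, and the call held in all 16 removals. Car1, its neighbour and chosen with its values in view, had 0.411, 1.002, 1.4998 and 0.758 CPM in treated animals, against 3.53, 5.21, 4.405 and 3.09 CPM in saline animals (log2 fold change -2.13, SE 0.362, adjusted p = 0.0150), and its call was lost in 1 of 16 removals (adjusted p up to 0.0548). That gene is also abundant in red cells. The 11 erythroid markers, tested or not, summed to between 1765 and 8647 TPM at 40 mg/kg and between 2367 and 7734 TPM in saline. Of the 8 tested, 7 were positive and 0 passed. The carbonic anhydrases Ca5a (log2 -0.30, adjusted p = 0.222), Ca8 (log2 -0.13, adjusted p = 0.614), Ca14 (log2 0.13, adjusted p = 0.735) and Car2 (log2 0.93, adjusted p = 0.332) did not pass. Ca3 is also an adipocyte gene. Of 11 adipocyte markers 6 were tested, 3 positive and 3 negative (median -0.16). Ca3 alone passed, Cidec was also lower without overlap, and Fabp4, Cfd, Pparg and Lpl overlapped. The part of adipose tissue in the Ca3 values was not tested. Mup4, a urinary protein gene under growth hormone control, had 20.4, 31.7, 29.7 and 21.1 CPM in treated animals, against 48.5, 46.9, 38.4 and 55.8 CPM in saline animals (log2 fold change -0.88, SE 0.157, adjusted p = 0.0175), and its call was lost in 2 of 16 removals (adjusted p up to 0.0578). It was the 1 gene of 19 in the growth hormone list that passed, and its near copy Mup5 (log2 -0.76, adjusted p = 0.0769) lay lower without overlap. Reads shared between such copies could not be separated here.

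Retinoid metabolism had 1 of 21 genes passing. Aldh1a1 (gene 24188), which oxidises retinal to retinoic acid, had 105, 142, 74.6 and 245 CPM in treated animals, against 26.7, 69.5, 30.8 and 38.2 CPM in saline animals (log2 fold change 1.78, SE 0.379, adjusted p = 0.0440). Treated replicate 4 was the highest, and treated replicate 3 lay just above saline replicate 2. It lost the call in 13 of 16 removals (adjusted p up to 0.107).

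Clock output genes leaned higher, and the core clock gave no call. Of 11 clock output genes 9 were positive (median 0.36), and 2 passed, the transcription factor Hlf and Lonrf3. The summed abundance of all 12 list genes did not differ, with 241 to 272 TPM at 40 mg/kg, within the saline range of 208 to 377 TPM. Hlf, a factor of the D-box binding family, had 34.6, 31.4, 32.2 and 27.6 CPM in treated animals, against 21.1, 21.1, 20.5 and 19.4 CPM in saline animals (log2 fold change 0.61, SE 0.130, adjusted p = 0.0344). Lonrf3 had 7.39, 9.55, 6.81 and 7.69 CPM in treated animals, against 3.99, 3.83, 3.62 and 5.08 CPM in saline animals (log2 fold change 0.93, SE 0.186, adjusted p = 0.0260). Neither overlapped, and their calls were lost in 9 and 5 of 16 removals (adjusted p up to 0.0929 and 0.0768). Dbp, the founding member of that family, had 3.11, 2.48, 3.403 and 2.797 CPM in treated animals, against 0.809, 1.68, 1.75 and 1.48 CPM in saline animals (log2 1.04, adjusted p = 0.101) and did not pass. Of 15 core clock genes 0 passed. Per2 had 45.1, 41.5, 35.4 and 43.8 CPM in treated animals, against 10.98, 14.3, 16.8 and 17.4 CPM in saline animals (log2 1.48, adjusted p = 0.181), and Nr1d1, a repressor of the clock, had 0.997, 1.36, 1.04 and 1.05 CPM in treated animals, against 7.86, 2.16, 5.97 and 2.64 CPM in saline animals (log2 -2.06, adjusted p = 0.0872). Both were without overlap, in opposite directions. Cry1 (log2 0.74, adjusted p = 0.0993) and Cry2 (log2 0.68, adjusted p = 0.124), chosen with their values in view, were higher without overlap. The activator Arntl had 36.9, 41.3, 46.8 and 44.1 CPM in treated animals, against 41.3, 40.9, 46.7 and 41.6 CPM in saline animals (log2 -0.01, adjusted p = 0.968), with overlap and a sign that changed with the scaling. Per1 had 4.11, 5.48, 7.15 and 5.83 CPM in treated animals, against 6.299, 35.9, 7.904 and 11.97 CPM in saline animals (log2 -1.46, adjusted p = 0.206). The hour of sampling is not given in the sources used here, so its part in these values was not tested.

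Glucocorticoid-induced genes did not move as 1 list. Of 18 tested, 12 were negative (median -0.35), and 2 passed, Zbtb16 and Sds. Zbtb16 (gene 353227), a zinc finger repressor strongly induced by glucocorticoids, had 6.101, 3.24, 3.98 and 7.28 CPM in treated animals, against 9.65, 25.2, 50.4 and 64.4 CPM in saline animals (log2 fold change -2.86, SE 0.553, adjusted p = 0.0321). The saline animals differed several times over among themselves, and the lowest still lay above the treated ones. In 5 of 16 removals the call was lost (adjusted p up to 0.0857). The standard reporter Fkbp5 had 14.6, 15.8, 16.3 and 16.7 CPM in treated animals, against 14.7, 24.2, 13.6 and 14.7 CPM in saline animals (log2 -0.08, adjusted p = 0.876) and Tsc22d3 had 23.99, 59.4, 61.6 and 34.5 CPM in treated animals, against 25.1, 153, 41.1 and 32.8 CPM in saline animals (log2 -0.49, adjusted p = 0.736). Saline replicate 2 stood out in both, and the sign of Fkbp5 changed under other scalings. Of the list, Sgk1 lay higher without overlap (log2 1.49, adjusted p = 0.222), whereas the receptor gene Nr3c1 lay lower without overlap, at 92.98, 118, 128 and 96.2 CPM in treated animals, against 182, 173, 136 and 201 CPM in saline animals (log2 -0.67, adjusted p = 0.0748).

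Amino acid synthesis genes of the ATF4 list were highest in 1 treated animal. Of 19 tested 12 were positive (median 0.44), and 0 passed. Asns, the asparagine synthetase, had 6.86, 4.72, 5.08 and 39.9 CPM in treated animals, against 2.6005, 1.92, 2.78 and 2.702 CPM in saline animals (log2 2.50, adjusted p = 0.0809). Phgdh, which starts serine synthesis, had 6.22, 0.648, 6.46 and 41.3 CPM in treated animals, against 0.578, 0.839, 1.81 and 1.03 CPM in saline animals (log2 3.68, adjusted p = 0.0885), and Psat1, the next step, had 9.91, 3.71, 4.73 and 51.2 CPM in treated animals, against 2.08, 2.097, 3.4996 and 3.02 CPM in saline animals (log2 2.70, adjusted p = 0.102). These genes, chosen with their values in view, were far higher in treated replicate 4 than in the other 3 treated animals. The list median stood at 0.13, 0.00, 0.18 and 1.06 in the treated animals, against -0.20, -0.03, 0.08 and 0.07 in saline animals, in log2 relative to the saline mean. The starvation hormone gene Fgf21 had 3.34, 3.07, 5.36 and 8.799 CPM in treated animals, against 2.02, 1.56, 2.23 and 1.99 CPM in saline animals (log2 1.40, adjusted p = 0.163), and Gdf15 (log2 -0.67, adjusted p = 0.618) overlapped. Aminoacyl tRNA synthetases, which load amino acids for translation, were positive in 18 of 20 with a median of 0.17. Yars1 alone passed, with 64.1, 56.8, 62.6 and 95.7 CPM in treated animals, against 38.95, 37.4, 40.1 and 40.8 CPM in saline animals (log2 fold change 0.83, SE 0.162, adjusted p = 0.0244), again highest in replicate 4. Removing 1 library ended the call 4 times in 16 (adjusted p up to 0.0691).

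Ribosomal and mitochondrial lists had small positive medians, and their medians by animal overlapped between groups. Each had 1 gene passing, near the share of 1.11% over all genes. Of 84 cytosolic ribosomal protein genes 79 were positive (median 0.16), and Rpl22l1 alone passed, at 28.9, 25.2, 29.8 and 37.1 CPM in treated animals, against 16.6, 15.1, 24.6 and 14.2 CPM in saline animals (log2 fold change 0.78, SE 0.162, adjusted p = 0.0332). Of 16 removals, 6 ended the call (adjusted p up to 0.102). Of 74 mitochondrial ribosomal genes 63 were positive (median 0.11), and Mrps34 alone passed, at 43.3, 35.7, 36.8 and 37.4 CPM in treated animals, against 29.8, 28.8, 25.9 and 27.3 CPM in saline animals (log2 fold change 0.45, SE 0.0737, adjusted p = 0.0129), holding in all 16 removals. Of 60 respiratory chain genes 52 were positive (median 0.09), and the ATP synthase subunit gene Atp5mc1 alone passed, at 116, 124, 129 and 129 CPM in treated animals, against 93.8, 94.6, 93.8 and 86.5 CPM in saline animals (log2 fold change 0.43, SE 0.0784, adjusted p = 0.0177). The lowest treated animal lay above the highest control in both genes. These medians were 0.16, 0.11 and 0.09 or more under every other scaling tried. By animal, in log2 relative to the saline mean, the cytosolic ribosomal median stood at 0.28, -0.08, 0.04 and 0.36 in the treated animals, against 0.01, -0.12, 0.12 and -0.01 in saline animals. Treated replicates 1 and 4 were above all saline animals, and treated replicates 2 and 3 lay within the saline range. The mitochondrial ribosomal median stood at 0.17, 0.05, 0.14 and 0.11 in the treated animals, against 0.03, -0.04, 0.10 and -0.09 in saline animals, and the respiratory chain median at 0.20, 0.03, 0.13 and 0.01 in the treated animals, against -0.01, -0.08, 0.09 and -0.02 in saline animals. In each of these lists saline replicate 3 lay above at least 1 treated animal. Outside the lists, and chosen with their values in view, the mitochondrial genes Dnajc11 (log2 0.36, adjusted p = 0.0241), C1qbp (log2 0.35, adjusted p = 0.0437), Abcb8 (log2 0.37, adjusted p = 0.0284) and the adenylate kinase Ak4 (log2 0.71, adjusted p = 0.0250) rose. Their calls were lost in 5, 11, 6 and 5 of 16 removals (adjusted p up to 0.0766, 0.122, 0.0921 and 0.0792), and that of Atp5mc1 in 3 (at most 0.0578).

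Immune genes passed singly. Nlrp12 (gene 292541), a cytosolic sensor that restrains NF-kB signalling, had 69.9, 80.2, 57.3 and 98.5 CPM in treated animals, against 210.4, 181, 149 and 227 CPM in saline animals (log2 fold change -1.33, SE 0.187, adjusted p = 0.00589). The groups were well apart and the call held in all 16 removals. It was the 1 gene of 18 in the inflammation list that passed. Il6r, the interleukin 6 receptor, had 45.9, 57.8, 53.8 and 57.6 CPM in treated animals, against 82.8, 169, 104 and 108 CPM in saline animals (log2 fold change -1.11, SE 0.205, adjusted p = 0.0221), and its call was lost in 3 of 16 removals (adjusted p up to 0.0636). It was the 1 gene of 24 in the acute phase list that passed, and the injury-induced Lcn2 (log2 -0.27, adjusted p = 0.879) overlapped, at 0.36 without saline replicate 4. F11, coagulation factor XI made by hepatocytes, had 136, 148, 157 and 160.1 CPM in treated animals, against 228, 218, 238 and 240.4 CPM in saline animals (log2 fold change -0.62, SE 0.136, adjusted p = 0.0419), and its call was lost in 9 of 16 removals (adjusted p up to 0.102). Of 30 tested genes of MHC class I presentation 22 were negative (median -0.54), and 2 passed. By animal the list median stood at -0.40, -0.27, -0.46 and -0.55 in the treated animals, against 0.10, 0.40, -0.05 and -0.41 in saline animals, in log2 relative to the saline mean, so saline replicate 4 lay within the treated range. The summed abundance of all 38 list genes, tested or not, also overlapped. It was between 2189.5 and 2640.2 TPM at 40 mg/kg and between 2255 and 4116 TPM in saline. RT1-CE13 had 6.51, 7.84, 7.38 and 11.8 CPM in treated animals, against 42.4, 49.7, 20.3 and 27.1 CPM in saline animals (log2 fold change -2.05, SE 0.397, adjusted p = 0.0289) and RT1-CE12 had 0.763, 0.413, 1.04 and 0.699 CPM in treated animals, against 7.17, 5.51, 1.99 and 2.51 CPM in saline animals (log2 fold change -2.55, SE 0.573, adjusted p = 0.0466). Saline replicates 1 and 2 were higher than saline replicates 3 and 4 in both. Their calls were lost in 6 and 11 of 16 removals (adjusted p up to 0.0843 and 0.123). The class I genes are close copies, and how the authors' counting divided their reads is uncertain. RT1-A2 had 265, 351, 216 and 317 CPM in treated animals, against 889.5, 1018, 295 and 498 CPM in saline animals (log2 -1.23, adjusted p = 0.109), with the same pair of saline animals highest. Genes induced by interferon, which also induces class I genes, were 6 positive and 29 negative, and 0 passed. Their median was -0.17, or 0.03 at the highest under another scaling. Their list median stood at -0.01, 0.19, -0.38 and -0.12 in the treated animals, against 0.02, 0.84, 0.05 and -0.95 in saline animals, and the part of that spread in the class I values was not tested. Kupffer cell markers were 10 positive and 6 negative (median 0.06), and T and NK cell markers 2 positive and 8 negative (median -0.16), 0 passing in either.

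A pair of cell death regulators, chosen with their values in view, fell without overlap. Cflar (gene 117279), which blocks caspase-8, had 35.6, 37.9, 38.9 and 38.6 CPM in treated animals, against 58.6, 55.3, 53.2 and 61.96 CPM in saline animals (log2 fold change -0.60, SE 0.0966, adjusted p = 0.0129) and held in all 16 removals. Casp6, an executioner caspase, had 11.6, 12.2, 11.1 and 15.2 CPM in treated animals, against 17.5, 17.4, 20.6 and 23.9 CPM in saline animals (log2 fold change -0.66, SE 0.130, adjusted p = 0.0240), and its call was lost in 4 of 16 removals (adjusted p up to 0.0753). Of 28 tested genes of the p53 and apoptosis list 0 passed, with 14 positive and 14 negative. Of 19 heat shock genes Bag3 alone passed, at 17.95, 23.6, 18.3 and 17.02 CPM in treated animals, against 37.1, 29.4, 42.7 and 25.9 CPM in saline animals (log2 fold change -0.81, SE 0.180, adjusted p = 0.0442), and its call was lost in 10 of 16 removals (adjusted p up to 0.123). Outside that list Dnajb4 had 10.1, 15.3, 10.3 and 10.3 CPM in treated animals, against 23.2, 21.3, 15.7 and 21.9 CPM in saline animals (log2 fold change -0.84, SE 0.185, adjusted p = 0.0440), and its call was lost in 10 of 16 removals (adjusted p up to 0.119). Neither of these chaperone-related genes overlapped between groups. Ficd, an endoplasmic reticulum enzyme that modifies BiP, had 7.45, 12.2, 9.92 and 10.7 CPM in treated animals, against 28.3, 17.7, 23.9 and 16.3 CPM in saline animals (log2 fold change -1.10, SE 0.243, adjusted p = 0.0453), and its call was lost in 11 of 16 removals (adjusted p up to 0.110). Of 25 unfolded protein response genes 0 passed. Hmox1, a gene of oxidant stress, had a log2 fold change of -0.03 (adjusted p = 0.961).

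Among genes that passed, the matrix gene Lox had the largest change. Lox (gene 24914), the lysyl oxidase that cross-links collagen and elastin, had 2.46, 3.18, 2.13 and 2.45 CPM in treated animals, against 247, 94.2, 125 and 73.5 CPM in saline animals (log2 fold change -5.72, SE 0.969, adjusted p = 0.0200). The treated animals were nearly equal, and saline replicate 1 was far above the other controls. In reads, the treated libraries held 42, 54, 37 and 42, against 4278, 1573, 2067 and 1142 in saline libraries. The ratio of pooled reads over library totals was 0.0195 (95% interval 0.0167 to 0.0226, counting error only, not the spread of animals). Lox lost the call in 5 of 16 removals (adjusted p up to 0.0683). The other family members Loxl1 (log2 0.28, adjusted p = 0.747), Loxl2 (log2 0.29, adjusted p = 0.351), Loxl3 (log2 0.27, adjusted p = 0.612) and Loxl4 (log2 -0.28, adjusted p = 0.596) did not pass. Of 39 genes of the lysyl oxidase and matrix list 29 were positive (median 0.23). Besides Lox, Col4a2, a basement membrane collagen chain, passed with 31.6, 27.5, 27.7 and 29.6 CPM in treated animals, against 21.3, 21.8, 18.5 and 21.7 CPM in saline animals (log2 fold change 0.48, SE 0.106, adjusted p = 0.0423), and its call was lost in 9 of 16 removals (adjusted p up to 0.102). P4ha1, which hydroxylates collagen prolines, had 13.8, 13.6, 12.7 and 13.4 CPM in treated animals, against 32.1, 20.2, 22.99 and 22.3 CPM in saline animals (log2 fold change -0.87, SE 0.172, adjusted p = 0.0260), and its call was lost in 5 of 16 removals (adjusted p up to 0.0792). Stellate cell markers were positive in 13 of 15 tested with a median of 0.28 and 0 passing. All 16 on the list summed to between 225 and 320.4 TPM at 40 mg/kg and between 173 and 237 TPM in saline. Mesothelial markers were positive in 12 of 12 with a median of 0.95 and 0 passing, and summed to between 103 and 168 TPM at 40 mg/kg and between 87.5 and 105 TPM in saline. Their part in the matrix values was not tested.

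Replication and division genes had low counts in these livers. Mcm10 (gene 307126), which loads polymerase at replication forks, had 2.64, 3.12, 3.06 and 3.21 CPM in treated animals, against 12.5, 12.2, 8.93 and 21.2 CPM in saline animals (log2 fold change -2.18, SE 0.338, adjusted p = 0.0129). The treated animals were nearly equal, all were below every control, and the call held in all 16 removals. Of 30 replication licensing genes it alone passed, against 1.11% of all genes, and the list median was 0.01. All 29 mitosis genes were negative (median -0.81), and 0 passed. By animal the list median stood at -0.65, -0.77, -0.59 and -0.43 in the treated animals, against 0.22, 0.65, 0.10 and -1.01 in saline animals, so saline replicate 4 lay below every treated animal. Top2a, the mitotic topoisomerase, had 1.76, 1.18, 2.83 and 2.16 CPM in treated animals, against 4.91, 7.73, 5.79 and 1.54 CPM in saline animals (log2 -1.33, adjusted p = 0.222). The same list had a median of 0.83 at 10 mg/kg and -0.29 at 20 mg/kg over the same saline animals.

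Some genes with a small p lay outside the lists. Adgrg2 (gene 266735), an adhesion G protein-coupled receptor known from the epididymis, was nearly silent in saline. Its reads were 22, 28, 23 and 61 in treated libraries, against 2, 1, 0 and 0 in saline libraries. The ratio of pooled reads over library totals was 45.0 (95% interval 15.1 to 221, counting error only, not the spread of animals). All 4 treated libraries were higher, and the call held in all 16 removals (adjusted p = 0.00446). The filter on low counts kept Adgrg2 through its 40 mg/kg values, at 1.29 to 3.55 CPM against 0.00 to 0.12 CPM in saline. Separation from saline was therefore partly set by that filter. Adgrg2 was tested in 7 of the other settings, against 11 for most named genes. Sult4a1, a sulfotransferase relative known from brain, had 40, 72, 45 and 118 reads in treated libraries, against 0, 8, 13 and 3 in saline libraries (ratio 11.5, 95% interval 7.60 to 18.3). Its adjusted p was 0.0323, and the call was lost in 6 of 16 removals (adjusted p up to 0.0929). Rnf138, a ubiquitin ligase, had 8.45, 8.73, 9.46 and 8.39 CPM in treated animals, against 14.3, 14.7, 13.6 and 13.96 CPM in saline animals (log2 fold change -0.69, SE 0.0901, adjusted p = 0.00446). Fam126b, part of a lipid kinase complex at the plasma membrane, had 48.9, 46.99, 44.7 and 47.8 CPM in treated animals, against 84.6, 106, 97.6 and 82.4 CPM in saline animals (log2 fold change -0.98, SE 0.132, adjusted p = 0.00446). Baiap2l1, which shapes actin-rich membrane, had 14.4, 15.2, 12.98 and 15.9 CPM in treated animals, against 23.1, 29.7, 30.5 and 29.7 CPM in saline animals (log2 fold change -0.95, SE 0.131, adjusted p = 0.00446). All 3 fell without overlap and held in all 16 removals.

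Further genes with large changes came from unrelated families. Kcnk5, a background potassium channel, had 12.6, 13.97, 25.96 and 16.5 CPM in treated animals, against 3.64, 4.31, 7.96 and 4.83 CPM in saline animals (log2 fold change 1.73, SE 0.382, adjusted p = 0.0468), with treated replicate 3 the highest. Otub2, a deubiquitinase, had 34.02, 38.2, 32.4 and 37.1 CPM in treated animals, against 10.6, 15.2, 21.96 and 11.6 CPM in saline animals (log2 fold change 1.25, SE 0.256, adjusted p = 0.0344), and Kifc3, a minus-end kinesin, had 14.3, 11.6, 11.6 and 14.3 CPM in treated animals, against 4.51, 4.73, 5.55 and 7.08 CPM in saline animals (log2 fold change 1.25, SE 0.271, adjusted p = 0.0436). Ccdc120 and Gse1 rose by log2 fold changes of 1.06 and 0.95. Among lower genes, Tenm2, a teneurin of cell adhesion, had 0.939, 1.59, 0.461 and 0.291 CPM in treated animals, against 3.87, 7.91, 2.59 and 6.18 CPM in saline animals (log2 fold change -2.64, SE 0.512, adjusted p = 0.0244), and Exph5, a Rab27 effector, had 9.56, 7.19, 5.94 and 8.22 CPM in treated animals, against 31.4, 12.7, 15.5 and 26.5 CPM in saline animals (log2 fold change -1.48, SE 0.329, adjusted p = 0.0485). Banp and Sh3bp5 fell by log2 fold changes of -1.29 and -1.19. These 9 genes were picked from those without overlap between groups, so their lack of overlap is no further result. Their calls were lost in 2 to 11 of 16 removals (adjusted p up to 0.118). Osbpl11, a lipid transfer protein, App, the amyloid precursor gene, and Lrp2, the endocytic receptor megalin, rose by 0.92, 0.55 and 0.42. Klf3, a repressor of adipogenesis, rose by 0.80, and Rnd2 and Zhx3 had log2 fold changes of -0.83 and -0.66, both lower. These 6 were chosen with their values in view. The calls of Osbpl11, App, Lrp2, Klf3 and Zhx3 were lost in 5, 2, 8, 5 and 1 of 16 removals (adjusted p up to 0.0974).

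Receptor genes for catecholamines gave no call among those described. Adra2b, an alpha-2 receptor, had 13.4, 6.37, 8.65 and 9.96 CPM in treated animals, against 5.78, 6.47, 8.57 and 6.18 CPM in saline animals (log2 0.51, adjusted p = 0.409), with treated replicate 1 the highest. Adra1b, the main alpha-1 receptor of rat liver, had 59.5, 68.8, 59.1 and 54.1 CPM in treated animals, against 60.2, 58.3, 76.4 and 69.8 CPM in saline animals (log2 -0.13, adjusted p = 0.636). Both overlapped. Adra1a had 0 reads in all 8 libraries. Of 25 adrenergic and cAMP signalling genes 0 passed, with 7 positive and a median of -0.05, or 0.02 at the highest under another scaling.

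Marker lists of further cell types gave no call. Hepatocyte markers were negative in 12 of 17 with a median of -0.06, or 0.01 at the highest under another scaling, and 0 passed. Sinusoidal endothelial markers were positive in 12 of 16 with a median of 0.18, cholangiocyte markers were 5 positive and 5 negative, and 0 passed in either. Neutrophil, B cell, skeletal muscle and pancreatic acinar lists had 2, 2, 1 and 1 members above the filter, and none of those passed. The 9 neutrophil markers with values, tested or not, summed to between 4.08 and 43.4 TPM at 40 mg/kg and between 6.62 and 22.1 TPM in saline. The highest and the lowest sums were both at 40 mg/kg. The pericentral glutamine synthetase gene Glul had 493, 507, 522 and 357 CPM in treated animals, against 708, 599, 575 and 296 CPM in saline animals (log2 -0.21, adjusted p = 0.746), with saline replicate 4 the lowest.

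**Figure D4:**
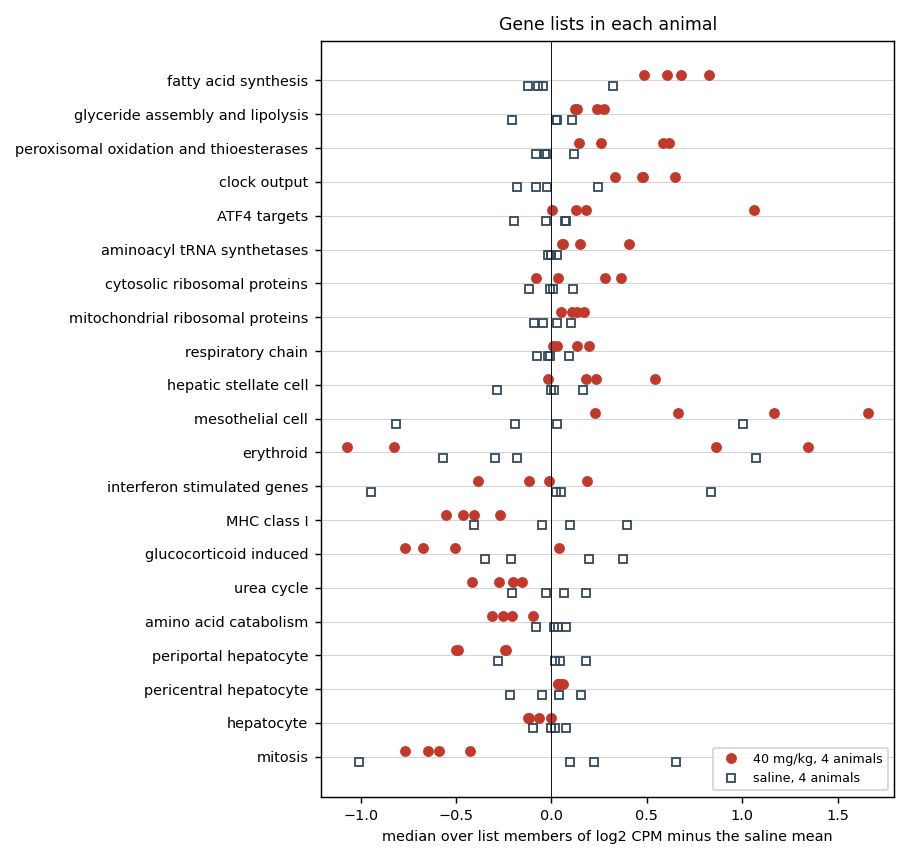
Median over list members of log2 CPM relative to the saline mean, for 21 gene lists in each of the 4 animals at 40 mg/kg (filled circles) and the 4 saline animals (open squares). Fatty acid synthesis separates the groups. Clock output, peroxisomal, aminoacyl tRNA synthetase and glyceride lists (higher) and amino acid catabolism (lower) also do not overlap, the last 4 by narrow gaps. ATF4 targets stand at 1.06 in 1 treated animal, and erythroid and mesothelial markers spread within both groups.

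The lower doses are given for genes that passed at 40 mg/kg. That choice favours large values at 40 mg/kg, so smaller changes at the other doses do not show a grading by dose. The doses are compared with the same 4 saline animals, so their fold changes share that error, and values are given side by side. Srebf1 had log2 fold changes over saline of 0.05, 1.23 and 1.34 at 10, 20 and 40 mg/kg, Fasn -0.08, 1.24 and 1.41, Pnpla3 0.13, 3.06 and 3.07 and Me1 0.12, 0.83 and 1.45. All 4 were near the saline level at 10 mg/kg, and at 20 mg/kg Srebf1, Fasn and Pnpla3 were close to their 40 mg/kg values while Me1 lay between. Zbtb16 had 0.84, -2.15 and -2.86, Sds 0.16, -0.76 and -2.76 and Pck1 0.11, -0.48 and -1.14. Zbtb16, Sds and Pck1 each had a smaller change at 20 mg/kg than at 40 mg/kg. Lox had -3.66, -3.29 and -5.72, Aldh1a1 1.19, 1.14 and 1.78 and Adgrg2 3.43, 3.62 and 5.22, so these 3 had the same sign at every dose. None of these 10 genes passed over saline at 10 mg/kg (adjusted p = 0.999 for each) or at 20 mg/kg, where the smallest adjusted p was 0.0741, for Srebf1. Between 40 and 20 mg/kg their smallest adjusted p was 0.850, so no difference between those doses was shown for any of them.

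**Figure D5:**
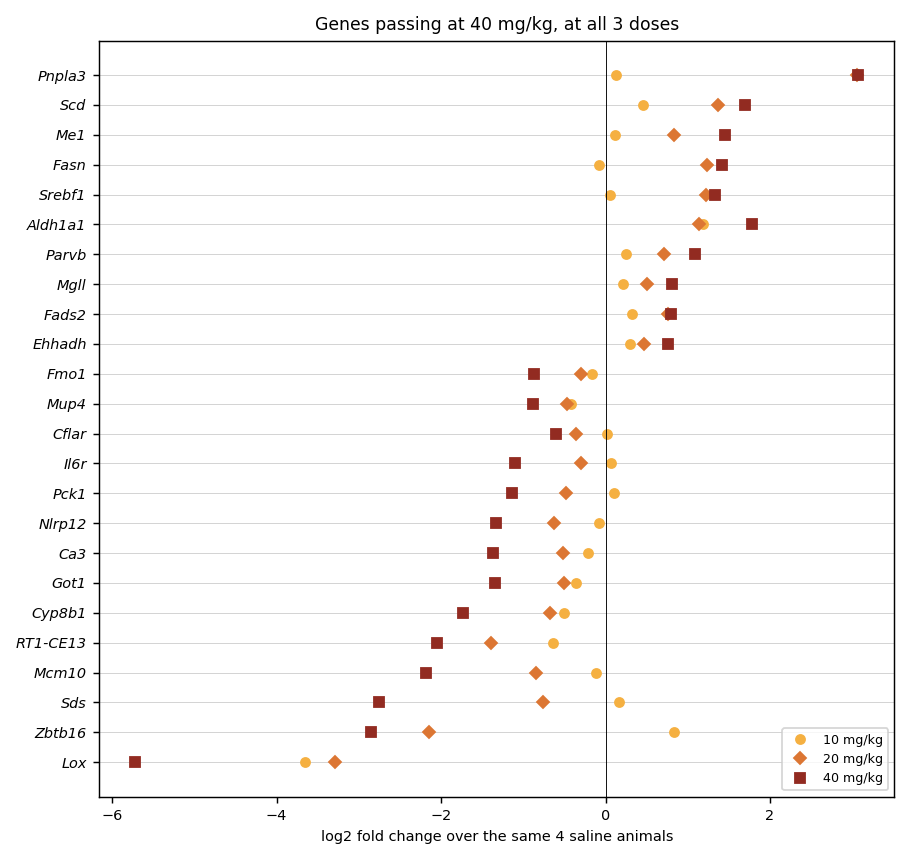
Log2 fold change over the same 4 saline animals at 10 mg/kg (circles), 20 mg/kg (diamonds) and 40 mg/kg (squares) for 24 genes that passed at 40 mg/kg. Srebf1, Fasn, Me1 and Pnpla3 lie near 0 at 10 mg/kg and higher at 20 and 40 mg/kg, where the Pnpla3 symbols coincide at 3.06 and 3.07. Fads2 lies at 0.32, 0.76 and 0.80 at 10, 20 and 40 mg/kg.

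Tested directly, 40 mg/kg differed from 10 mg/kg in 46 genes (0.361%), 14 higher (0.11%) and 32 lower (0.251%). The genes with the smallest p were Baiap2l1, Fam20c, Mcrip2, Dusp3 and Srebf1. Srebf1 averaged 462 ± 73.6 CPM at 40 mg/kg, against 189.7 ± 34.1 CPM at 10 mg/kg (log2 fold change 1.28, SE 0.188, adjusted p = 0.0106). Baiap2l1 averaged 14.6 ± 1.25 CPM at 40 mg/kg, against 29.3 ± 5.71 CPM at 10 mg/kg (log2 -1.01, adjusted p = 0.0106). Dusp3, a phosphatase that acts on MAP kinases, averaged 63.2 ± 6.16 CPM at 40 mg/kg, against 39.3 ± 3.43 CPM at 10 mg/kg (log2 0.69, adjusted p = 0.0106), and did not pass against saline (log2 0.28, adjusted p = 0.177). Fam20c, the kinase of secreted proteins, had a log2 fold change of 0.56 and Mcrip2 one of 0.84, both at adjusted p = 0.0106. Baiap2l1 and Fam20c kept these calls in all 16 removals, and Mcrip2, Dusp3 and Srebf1 lost them in 1 each (adjusted p of at most 0.0543). Zbtb16 (log2 -3.69, adjusted p = 0.0179), Pck1 (log2 -1.24, adjusted p = 0.0200), Il6r (log2 -1.17, adjusted p = 0.0291), Casp6 (log2 -0.77, adjusted p = 0.0179), Cflar (log2 -0.62, adjusted p = 0.0126) and Me1 (log2 1.33, adjusted p = 0.0360) also passed against 10 mg/kg. They lost these calls in 5, 4, 6, 4, 3 and 6 of 16 removals. The count ran from 2 without replicate 2 of the 10 mg/kg group to 120 without replicate 1 of that group.

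Between 40 and 20 mg/kg 0 genes passed (0.0%) with edgeR, with 688 at an unadjusted p under 0.05 and a smallest adjusted p of 0.420. DESeq2 called 8. The named genes with the smallest p were Arl5a (log2 fold change 0.44, adjusted p = 0.654), Rnf138 (-0.44, adjusted p = 0.654) and Slc6a13 (0.37, adjusted p = 0.740), beside 2 with placeholder symbols. A difference that did not pass does not show that the 2 doses act alike.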

How the data were processed

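Liver messenger RNA of 16 male rats, 4 per group, was sequenced per the labels' protocols; each library is 1 animal. The authors deposited expected counts per gene, without normalization, beside FPKM and TPM values. The build mRatBN7.2 and the tools RSEM, Bowtie2 and DESeq2 are named in the submitters' processing notes; their roles, versions and the strand setting are not given in the sources used here. The authors' normalized read counts, a signal that rescales the deposited expected counts, were not used.

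Expected counts were rounded. Genes were kept by filterByExpr (minimum count 10, minimum total 15), scaled by TMM factors and fitted over all 16 libraries, 1 term per group, with the quasi-likelihood test of edgeR 4.0.16 (R 4.3.3). P was adjusted by Benjamini-Hochberg over the 12732 genes tested, two-sided, at 0.05. SE is the absolute log2 fold change over the square root of F. The model was tested on simulated data. The library totals, given with the results, limit genes with few reads, and intervals cover counting error only. The alternatives were DESeq2 1.42.0, limma 3.58.1 (voom, or log2 of TPM or FPKM plus a pseudocount), other scalings and filters, the compared groups alone, a replicate block and the removal of each library.

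Members, lists and tests were chosen with earlier results of these data known. Named genes are, among those that passed, reached a group mean of 5 CPM and did not overlap between the groups, the 15 that rose most and the 15 that fell most; up to 6 passing members per list, the 5 with the smallest p and a set named in any case. Other genes, including members given to show a list, were chosen with their values in view. Some results are not reported here.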

Additional observations from a re-analysis of the deposited data

Results flagged for a closer look

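Of 310 groups of 4 animals examined, 30 held 1 animal apart from the other 3. The rule was a gap to the nearest animal of over 0.829 of the group's range, the 95% Dixon value for 4. It depends on how close the other 3 lie, so some flagged animals differ little, as Atp5mc1 at 86.5 CPM against 93.8 to 94.6 CPM. The groups came from the genes named here, many of them chosen with their values in view. Their number was therefore not compared with chance. No explanation was tested. In the 40 mg/kg group, the single high values were Tkt at 345 CPM in treated replicate 4 (others 269 to 278 CPM), Nr1d1 at 1.36 CPM in treated replicate 2 (others 0.997 to 1.05 CPM), Lcn2 at 8.61 CPM in treated replicate 2 (others 1.63 to 2.31 CPM) and Adgrg2 at 3.55 CPM in treated replicate 4 (others 1.29 to 1.65 CPM). Also there, the single high values were App at 104 CPM in treated replicate 4 (others 87.3 to 89.7 CPM), Dnajb4 at 15.3 CPM in treated replicate 2 (others 10.1 to 10.3 CPM), Dnajc11 at 40.2 CPM in treated replicate 3 (others 36.2 to 36.5 CPM) and Asns at 39.9 CPM in treated replicate 4 (others 4.72 to 6.86 CPM). Also there, the single high values were Psat1 at 51.2 CPM in treated replicate 4 (others 3.71 to 9.91 CPM), Phgdh at 41.3 CPM in treated replicate 4 (others 0.648 to 6.46 CPM), Cars at 59.1 CPM in treated replicate 4 (others 30.5 to 34.1 CPM) and Cry2 at 34.0 CPM in treated replicate 4 (others 28.1 to 28.9 CPM). Also there, the single high values were Abcc3 at 13.8 CPM in treated replicate 4 (others 3.86 to 4.19 CPM) and Msln at 13.8 CPM in treated replicate 1 (others 4.08 to 5.02 CPM). In the 40 mg/kg group, the single low value was Cyp7a1 at 96.7 CPM in treated replicate 1 (others 214 to 231 CPM). In the saline group, the single high values were Cyp8b1 at 410.1 CPM in saline replicate 3 (others 215 to 246 CPM), Tm6sf2 at 25.2 CPM in saline replicate 2 (others 20.7 to 21.4 CPM), Arntl at 46.7 CPM in saline replicate 3 (others 40.9 to 41.6 CPM) and Fkbp5 at 24.2 CPM in saline replicate 2 (others 13.6 to 14.7 CPM). Also there, the single high values were Tsc22d3 at 153 CPM in saline replicate 2 (others 25.1 to 41.1 CPM), Tmem135 at 66.8 CPM in saline replicate 2 (others 52.2 to 53.8 CPM), Abcd3 at 199 CPM in saline replicate 4 (others 173 to 175 CPM) and Loxl2 at 10.9 CPM in saline replicate 2 (others 8.30 to 8.57 CPM). In the saline group, the single low values were Atp5mc1 at 86.5 CPM in saline replicate 4 (others 93.8 to 94.6 CPM), Col4a2 at 18.5 CPM in saline replicate 3 (others 21.3 to 21.8 CPM), Baiap2l1 at 23.1 CPM in saline replicate 1 (others 29.7 to 30.5 CPM) and Acot4 at 6.36 CPM in saline replicate 1 (others 16.8 to 18.2 CPM). Also there, the single low values were Asl at 174 CPM in saline replicate 1 (others 223 to 232 CPM), Wee1 at 1.33 CPM in saline replicate 1 (others 2.44 to 2.52 CPM) and Gpm6a at 1.27 CPM in saline replicate 3 (others 15.9 to 17.0 CPM).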

How the results depend on the processing

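At 40 mg/kg against saline the 141 genes became 523 with DESeq2, 43 with a minimum absolute log2 fold change of 1 and 450 at an adjusted p below 0.1, and 27 to 198 when 1 library was left out. Against 10 mg/kg the 46 became 304 with DESeq2, 73 for the groups compared alone, 72 on log2(TPM + 0.1) and 30 with limma-voom, and 2 to 120 in the removals. Against 20 mg/kg the 0 became 8 with DESeq2, 1 for the groups alone, 1 with the replicate block and 0 to 1 in the removals. No other setting moved a count by over 1.5 times; the causes were not tested. The replicate block gave 105 genes at 40 mg/kg against saline, and ended the calls of 26 of 81 named genes. The labels do not say that replicate numbers pair animals. Same-number correlations of deviations were 0.107, 0.114, 0.000 and -0.006, against -0.127 to 0.068 between different numbers. These values do not settle whether the numbers mark a shared structure.

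Of 81 named genes passing, 67 lost the call in at least 1 of 16 removals, and 0 reversed. Of those not passing, 10 reversed. G6pc1 was 0.053 by totals and 0.011 on both TPM settings (-0.21 to 0.24 in removals). Arntl was 0.051 by totals, 0.086 and 0.090 on TPM and 0.062 on FPKM (-0.063 to 0.050). Fkbp5 was 0.024, 0.034 and 0.0033 on TPM + 1, TPM + 0.1 and FPKM (-0.18 to 0.14). Hmox1 was 0.033 by totals, 0.034 and 0.035 on TPM and 0.011 on FPKM (-0.13 to 0.057). Alb was 0.042 by totals, 0.064 on TPM and 0.040 on FPKM (-0.10 to 0.029). Irs2 was 0.14 with voom, 0.11 and 0.19 on TPM and 0.085 on FPKM (-0.40 to 0.52). Fmo5 was 0.039 by totals, 0.0027 with voom, 0.10 on TPM and 0.073 on FPKM (-0.12 to 0.17). In removals alone, Tsc22d3 ran from -0.75 to 0.44, Cyp2b1 from -0.036 to 0.65 and Lcn2 from -1.11 to 0.36.

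Scaling by library totals raised the median of all genes by 0.06, and 18 list medians changed sign under some scaling. With 4 animals a side, this depth limits genes under 1 CPM most.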
